A study of Mus musculus with 9 samples.

Results

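The smooth muscle actin programme and the wider actin cytoskeleton of myofibroblasts were followed through 38 genes: actins, transgelins, calponins, myosin chains, tropomyosins, actin crosslinkers, focal adhesion and LIM domain proteins, intermediate filament proteins and the transcriptional regulators of this set. They were picked by symbol, from a list drawn up by gene function with earlier results of these data known. All 38 were found among the 51810 genes of the expression table. Of these, 35 averaged 1 TPM or more across the 9 libraries and were tested. TPM is the share of a gene's transcripts in its library, scaled to a fixed total and corrected for gene length, so levels can be set side by side between genes. The cells were valvular interstitial cells, the fibroblast-like cells inside heart valve leaflets, grown from C57BL/6J mice, with mitral and aortic valves together as the source. Their DMEM held 10% serum, insulin (5 ug/mL), EGF (2 ng/mL) and 0.5 ng/mL of basic FGF. RNA was sequenced from 3 libraries of each of 3 groups: cells given 50 ug/mL of low-density lipoprotein (LDL) for 24 h, cells given 50 ug/mL of oxidised LDL (oxLDL) for 24 h, and Control cells, which one label calls untreated and another describes as given buffer. The labels name no genetic change in any group, and every group shared the serum and the growth factors. The labels do not say that the libraries of a group came from separate cultures or animals, so every p-value measures the spread between these libraries, which may be technical.

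Actin filaments slide along bundles of myosin to give a cell its tension, and tropomyosin, calponin, transgelin and caldesmon bind along the filament and regulate that movement. In fibroblasts that become myofibroblasts, smooth muscle alpha-actin (Acta2) is built into stress fibres that are anchored at focal adhesions, and its appearance is the usual mark of valve interstitial cell activation. Many of these genes are transcribed through serum response factor (SRF), which binds a sequence called the CArG box together with myocardin or the myocardin-related factors, and several are also bound by TEAD factors at a short sequence called MCAT.

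The genes of the set that are used as smooth muscle markers were spread over a wide range of levels. Over the 9 libraries Acta2 averaged 718 TPM, Tagln 649.9, Myl9 96.9 and Smtn 69.7 TPM. Lmod1 averaged 5.16, Actg2 3.82 and Cnn1 1.26 TPM, and Myh11, Des and Myocd were under 1 TPM, at 0.50, 0.461 and 0.332 TPM. The cells carried all 16 of the listed valve interstitial and fibroblast markers above the filter, for example Col1a1 at 1157 to 1584 TPM and Pdgfra at 146 to 193 TPM. Transcripts of other cells were present too. The 15 macrophage and leukocyte markers, of which 13 passed the filter, summed to 262 to 524 TPM in the Control libraries, 258 to 795 TPM with LDL and 117 to 815 TPM with oxLDL. The 12 endothelial markers summed to 251 to 535 TPM in the Control libraries, 250.2 to 559.8 TPM with LDL and 237 to 530.5 TPM with oxLDL. Of 18 striated muscle markers, 3 passed the filter, with Tnnt2 at 9.59 to 63.0 TPM and the striated muscle actins Acta1 and Actc1 at means of 0.233 and 0.529 TPM. The 12 pericyte and vascular smooth muscle markers, of which 7 passed, summed to 72.8 to 103 TPM in the Control libraries, 87.4 to 116 TPM with LDL and 77.3 to 146 TPM with oxLDL, with Rergl listed at 0 in every library. In whole cultures such as these, fewer cells of a type and less RNA per cell cannot be told apart. Mitochondrial transcripts took 1.71 to 3.25% of TPM per library, ribosomal protein genes 12.8 to 14.7%, and 20985 to 21433 genes were listed above 0.

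The promoters were read for both sequences because both are known elements of this gene programme. Promoter sequences, 250 bases before to 50 after each start site, came from RefSeq on GRCm38.p6 and were held for 32 of the 38 genes, with 38 promoters in all. Actb, Actg2, Tagln, Myh11, Csrp2 and Myocd had no entry. A CArG box was sought by its strict consensus, CC, then 6 letters that are A or T, then GG, which covers both strands. Boxes with any other letter in that stretch were not counted, so a gene without a match may still hold one. MCAT was sought as CATTCC or its reverse GGAATG. A CArG box lay in the promoters of 6 of the 32 genes, which is 6 of 38 promoters (15.8%) against 535 of 32851 promoters of all genes (1.63%). The 6 genes were Myl9, Cnn2, Actg1, Vcl, Myl6 and Srf itself, whose promoter held 2 of them. The box of Myl6 was in promoter 2 of that gene and not in promoter 1. The stretches around the CArG boxes of 5 of these genes are printed on the gene's own strand with the box in capitals. The search fixed most of what the boxes have in common, so their likeness is not a result.
Myl9: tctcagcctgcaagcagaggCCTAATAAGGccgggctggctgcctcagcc
Cnn2: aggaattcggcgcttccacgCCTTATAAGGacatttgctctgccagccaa
Actg1: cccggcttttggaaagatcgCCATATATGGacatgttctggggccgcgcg
Vcl: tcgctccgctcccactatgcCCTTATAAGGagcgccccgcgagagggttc
Srf: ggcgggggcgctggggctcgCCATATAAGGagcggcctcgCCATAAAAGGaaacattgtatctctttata
They lie at chr2:156775283-156775332, plus strand (Myl9), chr10:79988524-79988573, plus strand (Cnn2), chr11:120348556-120348605, minus strand (Actg1), chr14:20929151-20929200, plus strand (Vcl) and chr17:46556195-46556264, minus strand (Srf). The boxes start 161, 56, 90 and 227 bases before the start site in the first 4 genes, and 82 and 62 bases before it in Srf. The boxes of Cnn2 and Vcl have the same 10 letters.

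MCAT was found in the promoters of 13 of the 32 genes, which is 14 of 38 promoters (36.8%) against 4817 of 32851 (14.7%). The overlapping promoters of Flnc shared 1 match. Acta2 and Tpm1 are shown because their means with LDL differed from Control in opposite directions, as given further on, while both promoters carry the element in the same orientation. The element is in capitals.
Acta2: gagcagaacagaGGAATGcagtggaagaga
Tpm1: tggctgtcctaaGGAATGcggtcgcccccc
The Acta2 stretch is chr19:34255502-34255531, minus strand, with the element 146 bases before the RefSeq start site, and the Tpm1 stretch is chr9:67049252-67049281, minus strand, with the element 56 bases before it. A match of letters is a description of the sequence. It does not show that a factor was bound there, and a promoter without a match says nothing about the factor.

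Together the 38 genes made up 2.36 to 2.77% of all TPM in a library, and their mean levels ran from 0.332 TPM for Myocd to 5584 TPM for Vim. Averaged over the 9 libraries, 7 genes reached at least 1000 TPM, 18 lay between 100 and 1000, 6 between 10 and 100, 4 between 1 and 10 and 3 under 1 TPM. Most of them varied little: across the 31 genes of at least 10 TPM the coefficient of variation over the 9 libraries ranged from 4.63 to 22.9% with a median of 10.7%, and the highest library exceeded the lowest by 1.14 to 1.92 times.

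**Figure D1:**
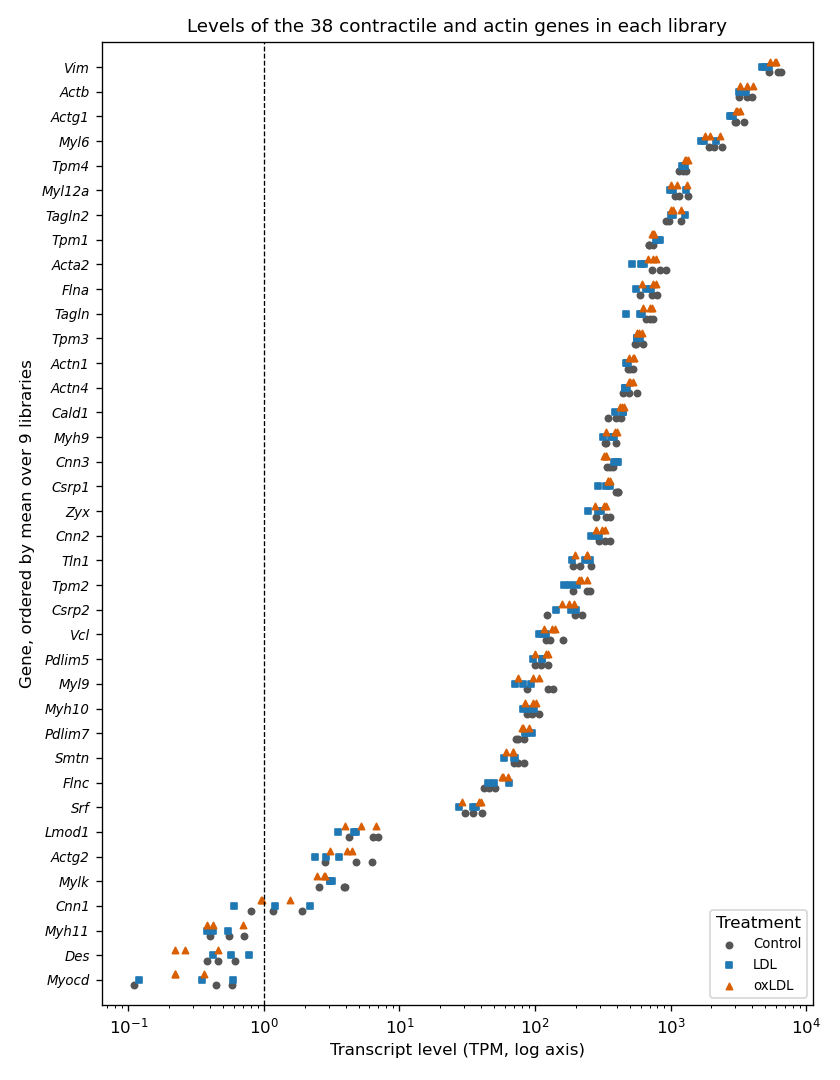
Transcript level (TPM, logarithmic axis) of each of the 38 genes in each of the 9 libraries, with circles for Control, squares for LDL and triangles for oxLDL and genes ordered by their mean. The dashed line marks 1 TPM, the mean a gene had to reach to be tested, and Myh11, Des and Myocd lie below it. For most genes the 3 groups overlap, and the range over genes is far wider than the range within a gene.

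Among the actins, the cytoplasmic forms dominated. Actb, cytoplasmic beta-actin (chr5:142903115-142906754, minus strand), measured 3214, 3664 and 3962 TPM in the Control libraries, 3173, 3488 and 3605 with LDL and 3268, 4074 and 3674 with oxLDL. Actg1, cytoplasmic gamma-actin (chr11:120345690-120348542, minus strand), measured 3040.1, 2999 and 3483 TPM in the Control libraries, 2818, 2722 and 2884 with LDL and 3027, 3269.9 and 3079 with oxLDL. The Actb groups overlapped, whereas every LDL value of Actg1 lay below every Control and every oxLDL value. Acta2 (chr19:34241090-34255590, minus strand) measured 725, 928 and 842 TPM in the Control libraries, 605, 642 and 519 with LDL and 677, 744 and 782 with oxLDL. All 3 LDL libraries were below all 3 Control and all 3 oxLDL libraries, and the oxLDL and Control libraries overlapped. Actg2, the gamma-actin of enteric smooth muscle (chr6:83512905-83536265, minus strand), was low in every library, with 2.83, 4.78 and 6.26 TPM in the Control libraries, 2.38, 3.60 and 2.87 with LDL and 4.11, 3.07 and 4.44 with oxLDL, and all its groups overlapped.

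Tagln, transgelin or SM22-alpha, an actin-bundling protein of smooth muscle and an early marker of its differentiation (chr9:45929619-45936058, minus strand), measured 701, 745 and 664 TPM in the Control libraries, 596, 618 and 466 with LDL and 729.9, 709.6 and 621 with oxLDL. Its LDL libraries lay below the others without overlap, with LDL 3 the lowest. Its paralogue Tagln2, found widely outside muscle, averaged 1076 TPM, and its groups overlapped. The calponins, which bind actin and inhibit the myosin ATPase, were represented by the non-muscle forms. Cnn3, acidic calponin (chr3:121426497-121458207, plus strand), measured 374, 342 and 356 TPM in the Control libraries, 379.9, 401 and 406 with LDL and 333, 321 and 335 with oxLDL. The 3 groups of Cnn3 did not overlap in any pair, with LDL highest and oxLDL lowest. Cnn2 (chr10:79988584-79996062, plus strand) measured 295, 328 and 358 TPM in the Control libraries, 259.9, 284 and 299 with LDL and 284, 327 and 310.5 with oxLDL. The LDL and Control libraries of Cnn2 overlapped through LDL 3. Cnn1, the calponin of differentiated smooth muscle (chr9:22099216-22109630, plus strand), measured only 1.17, 1.92 and 0.81 TPM in the Control libraries, 1.21, 2.18 and 0.60 with LDL and 0.97, 0.96 and 1.56 with oxLDL, and no group stood apart.

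Of the myosin chains, the light chains Myl6, an essential light chain, and Myl12a, a regulatory light chain of non-muscle myosin, averaged 2014 and 1151 TPM. Myl9, the regulatory light chain of smooth muscle myosin (chr2:156775420-156781658, plus strand), measured 87.5, 136 and 124 TPM in the Control libraries, 70.8, 92.7 and 80.9 with LDL and 74.9, 97.1 and 108 with oxLDL. Control 1 lay within the LDL range, so the groups overlapped. Mylk, the kinase that phosphorylates the regulatory light chain (chr16:34745210-35002420, plus strand), measured 3.99, 2.55 and 3.91 TPM in the Control libraries, 3.07, 3.16 and 3.09 with LDL and 2.78, 2.48 and 2.81 with oxLDL, with every oxLDL value below every LDL value. The non-muscle heavy chains Myh9 and Myh10 averaged 361 and 93.0 TPM. The smooth muscle heavy chain Myh11 (chr16:14194535-14291372, minus strand) measured 0.55, 0.40 and 0.71 TPM in the Control libraries, 0.42, 0.54 and 0.38 with LDL and 0.70, 0.38 and 0.42 with oxLDL and was not tested.

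The tropomyosins, coiled-coil proteins that lie along the actin filament, were all well above the filter: Tpm4 averaged 1259 TPM, Tpm1 753, Tpm3 579 and Tpm2 212. Tpm1 (chr9:67022590-67049406, minus strand) measured 688, 736 and 697 TPM in the Control libraries, 777, 840.3 and 809 with LDL and 730.5, 759 and 742 with oxLDL. The LDL libraries lay above all others. Tpm2 (chr4:43514711-43523765, minus strand) measured 189.6, 255 and 241 TPM in the Control libraries, 165, 205 and 181 with LDL and 212, 241 and 220.0 with oxLDL. Here the LDL libraries lay below all oxLDL libraries but overlapped with Control 1. The crosslinkers Actn1 and Actn4, alpha-actinins that bundle actin filaments, averaged 500.0 and 492 TPM, and the filamins Flna and Flnc, which join filaments into networks, 688 and 52.9 TPM. The focal adhesion proteins Zyx (zyxin), Tln1 (talin, which couples integrins to actin) and Vcl (vinculin) averaged 305, 225 and 126 TPM.

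Other filament proteins included Cald1, caldesmon, which binds actin and tropomyosin (chr6:34598500-34775473, plus strand) and measured 433, 343 and 394 TPM in the Control libraries, 447, 443 and 392 with LDL and 451, 436 and 421 with oxLDL. Smtn, smoothelin (chr11:3517523-3540612, minus strand), measured 75.3, 70.4 and 83.2 TPM in the Control libraries, 58.9, 69.8 and 70.8 with LDL and 60.9, 68.7 and 69.0 with oxLDL. Lmod1, a leiomodin that nucleates actin filaments in smooth muscle (chr1:135324807-135368065, plus strand), measured 4.23, 6.38 and 6.90 TPM in the Control libraries, 3.53, 4.65 and 4.80 with LDL and 3.99, 5.20 and 6.77 with oxLDL. In Cald1 and Lmod1 all groups overlapped, and in Smtn all oxLDL values lay below all Control values. Vim, vimentin, the intermediate filament protein of mesenchymal cells (chr2:13573927-13582826, plus strand), was the most abundant gene of the set, with 6224, 5297 and 6523 TPM in the Control libraries, 5303, 4932 and 4749 with LDL and 5976, 5858 and 5393 with oxLDL. The LDL libraries of Vim lay below all oxLDL libraries and overlapped with Control only at Control 2. The muscle intermediate filament gene Des, desmin (chr1:75360329-75368579, plus strand), measured 0.61, 0.46 and 0.38 TPM in the Control libraries, 0.77, 0.42 and 0.57 with LDL and 0.46, 0.22 and 0.26 with oxLDL.

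The LIM domain proteins Csrp1 and Csrp2, which associate with the actin cytoskeleton, averaged 361 and 178 TPM, and Pdlim5 and Pdlim7, adaptors with a PDZ and LIM domains, 111 and 82.8 TPM. Csrp1 (chr1:135720061-135752232, plus strand) measured 396, 412 and 413 TPM in the Control libraries, 357, 334 and 289.6 with LDL and 344, 355 and 346 with oxLDL, and both lipoprotein groups lay below all Control libraries. Csrp2 spread widely within the Control group, at 196, 223 and 123.5 TPM, and its groups overlapped. Srf, the shared transcription factor (chr17:46548329-46556175, minus strand), measured 30.3, 34.9 and 40.5 TPM in the Control libraries, 27.5, 34.8 and 36.7 with LDL and 29.0, 39.8 and 38.3 with oxLDL, with full overlap of the groups. Its coactivator myocardin, Myocd (chr11:65176561-65269989, minus strand), measured 0.58, 0.11 and 0.44 TPM in the Control libraries, 0.59, 0.35 and 0.12 with LDL and 0.36, 0.22 and 0.22 with oxLDL.

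Some of these levels can include reads of other loci, since the libraries did not mark strand and near-identical copies may share reads. When the longest coding transcript of each gene was cut into windows of 100 bases, 51.1% of the Actg1 windows were also found in other genes, mostly in Gm12715 (mean 230.2 TPM), 45.7% of the Tpm3 windows in Tpm3-rs7 (9.17 TPM) and 24.5% of the Myl12a windows in Myl12b (235 TPM). For Vcl the share was 38.6%, through Ap3m1 on the opposite strand (83.2 TPM), and for Tagln 33.2%, mostly through the antisense gene Gm48529. For Cnn3 it was 13.5%, mostly through Gm42928 on the opposite strand (1.11 TPM). Reads from such windows make the values of these 6 genes uncertain, but the share of windows does not measure by how much. Smaller shares were found for further genes of the set. For Acta2, Actg2, Myl9, Tpm1, Tpm2, Vim, Csrp1 and Flnc no window was shared.

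A share within a family cancels the scaling between libraries, and is a share of transcripts, not of protein. Shares within the actins, transgelins, tropomyosins and calponins carry the uncertainty of Actg1, Tagln, Tpm3 and Cnn3 given above. Acta2 supplied 10.4, 12.2 and 10.2% of the transcripts of the 4 actins in the Control libraries, 9.17, 9.36 and 7.40% with LDL and 9.70, 9.19 and 10.4% with oxLDL. The means were 10.9 ± 1.13%, 8.64 ± 1.08% and 9.75 ± 0.591% (SD, n = 3), and the LDL values lay below all Control values and overlapped with oxLDL. Actb made up 47.3 ± 1.16%, 50.1 ± 1.79% and 48.6 ± 1.75% in the same order, and Actg2 at most 0.0755%.

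Among the 4 tropomyosins, Tpm1 supplied 25.7, 27.5 and 24.4% in the Control libraries, 28.0, 29.8 and 28.6% with LDL and 25.7, 25.9 and 26.3% with oxLDL. Tpm2 supplied 7.09, 9.51 and 8.44%, 5.95, 7.28 and 6.40% and 7.44, 8.23 and 7.81% in the same order. With LDL, then, the share of Tpm1 was above all Control values and that of Tpm2 was lower in mean with overlap. Between the 3 calponins, Cnn3 supplied 55.8, 50.9 and 49.7% in the Control libraries, 59.3, 58.3 and 57.6% with LDL and 53.9, 49.4 and 51.7% with oxLDL, and Cnn2 nearly all of the remainder. The LDL values of Cnn3 lay above all others. Tagln supplied 36.8, 44.5 and 40.6% of the transgelin pair in the Control libraries, 31.6, 38.2 and 30.8% with LDL and 37.99, 40.49 and 37.99% with oxLDL. Myh9 made up 77.9 to 81.3% of the 3 myosin heavy chains and Myh11 at most 0.168%. No test was made on these shares, which describe the libraries.

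**Figure D2:**
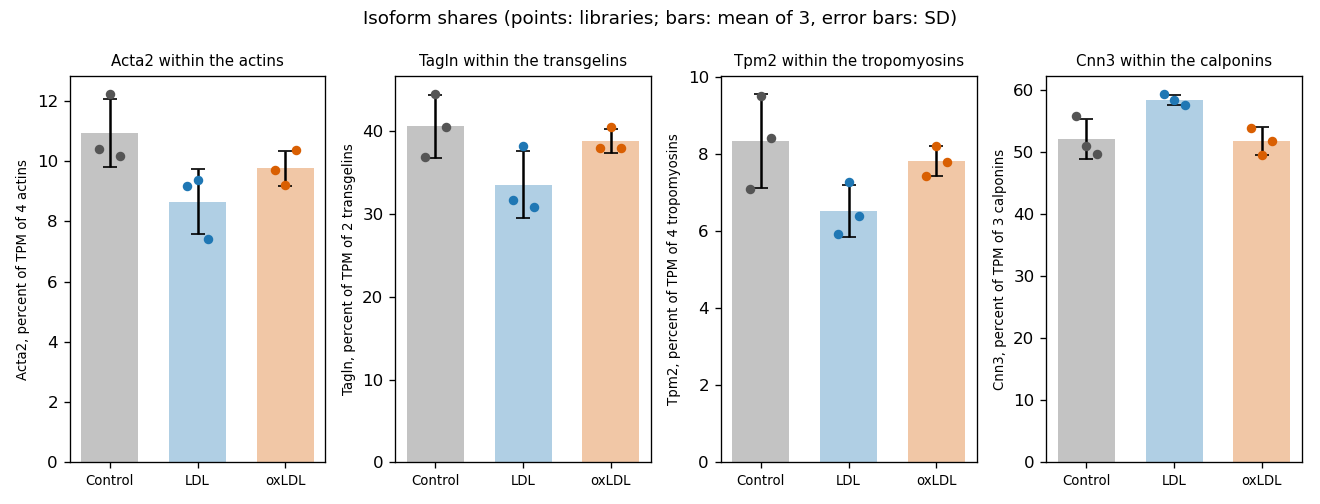
Share of 1 isoform in the summed TPM of its family (percent, axis from 0) for Acta2 among 4 actins, Tagln among 2 transgelins, Tpm2 among 4 tropomyosins and Cnn3 among 3 calponins. Points are libraries, bars the mean of 3 and error bars the SD. The LDL bars are the lowest for Acta2, Tagln and Tpm2 and the highest for Cnn3, and for Tagln and Tpm2 LDL points overlap with Control points.

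With LDL against Control, the question was whether native lipoprotein shifts the contractile programme. Acta2, Tagln, Myl9, Tpm2 and Csrp1 were among the 25 genes lower in mean with LDL. Acta2 averaged 832 ± 102 TPM in Control and 589 ± 63.1 TPM with LDL (SD, n = 3), 1.41-fold lower, Myl9 was 1.42-fold lower, Tagln 1.26-fold and Tpm2 and Csrp1 each 1.24-fold lower. Tpm1, Pdlim7 and Cnn3 lay the other way, 1.14, 1.16 and 1.11-fold higher, and the log2 differences of Cald1 and Cnn1 were 0.14 and -0.01. None of these differences passed the test across all genes. By limma on log2(TPM + 1), 0 of the 35 tested genes had an adjusted p under 0.05, against 0.333% of all 13495 genes, and 0 did with the replicate number as a block, against 0.852%. At an unadjusted p under 0.05 there were 10 of 35, of which 7 were lower and 3 higher, against 6.65% of all genes. Because the set was chosen with earlier results of these data known, such counts beside all genes are description only, in every comparison.

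The log2 difference of Acta2 was -0.50 (95% confidence interval -0.75 to -0.24, adjusted p = 0.21 by limma). For Csrp1 it was -0.32 (-0.50 to -0.14, adjusted p = 0.24) and for Tpm1 0.19 (0.06 to 0.33, adjusted p = 0.39). These 3 had the smallest unadjusted p-values of the set, and in each the LDL and Control libraries did not overlap. Tagln differed by -0.34 (-0.60 to -0.08, adjusted p = 0.5), or by -0.21 without LDL 3, its lowest library, and Myl9 by -0.49 (-0.91 to -0.06, adjusted p = 0.61). With the replicate number as a block in limma, the adjusted p-values were lower and still above 0.05. They were 0.070 for Acta2, 0.105 for Csrp1, 0.075 for Tpm1, 0.065 for Tagln and 0.054 for Myl9. The other genes under an unadjusted p of 0.05 were Tpm2 (-0.31), Vim (-0.26), Cnn2 (-0.22), Pdlim7 (0.21) and Cnn3 (0.15). Among the genes of lowest level, Actg2 differed by -0.47 with an interval of -1.01 to 0.06, and Lmod1 by -0.35 with -0.82 to 0.13. Both intervals include 0 and both genes were under 10 TPM in mean.

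By role, all 4 actins were lower in mean with LDL (log2 differences -0.50 to -0.08), as were 5 of 6 tested myosin genes, 5 of 7 crosslinker and focal adhesion genes, 3 of 5 transgelins and calponins and 3 of 4 LIM domain genes, whereas 3 of 4 tropomyosins were higher. Under quantile normalization Myh9 and Tpm3 changed sign, so that all 6 myosin genes were lower and 2 of 4 tropomyosins higher. Counting every alternative setting, the leaving out of single libraries included, 10 of the 35 genes changed sign under some setting. Over the 35 genes, 25 had a lower and 10 a higher mean, and the median log2 difference was -0.11, against -0.00184 over all genes tested. Groups did not overlap in 4 genes that were lower with LDL, namely Acta2, Actg1, Csrp1 and Tagln, against 5.06% of all genes, and in 3 that were higher, namely Cnn3, Pdlim7 and Tpm1, against 5.61%. Within pairs of libraries that share a replicate number, 17 of 35 genes were lower with LDL in 3 of 3 pairs, against 17.5% of all genes, and 4 were higher in 3 of 3, against 17.9%. The summed level of the 38 genes was 26260, 25299 and 27704 TPM in the Control libraries and 24474, 23877 and 23579 TPM with LDL. The LDL sums lay below all Control sums, also without Vim (18830 to 19170 against 20002 to 21180 TPM).

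The median lay closer to 0 without single libraries: it was -0.0441 without Control 3 and -0.0624 without LDL 1. Of the 13 tested macrophage and leukocyte markers, 13 were higher in mean with LDL (median log2 difference 0.22) and of the 12 endothelial markers 10 were lower, with sums that overlapped between the groups as given above, and their part in the result was not tested. Prrx1, a transcription factor among the valve interstitial markers, was the one marker called with the replicate block, at a log2 difference of 0.34 and an adjusted p of 0.27 without and 0.0495 with the block.

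**Figure D3:**
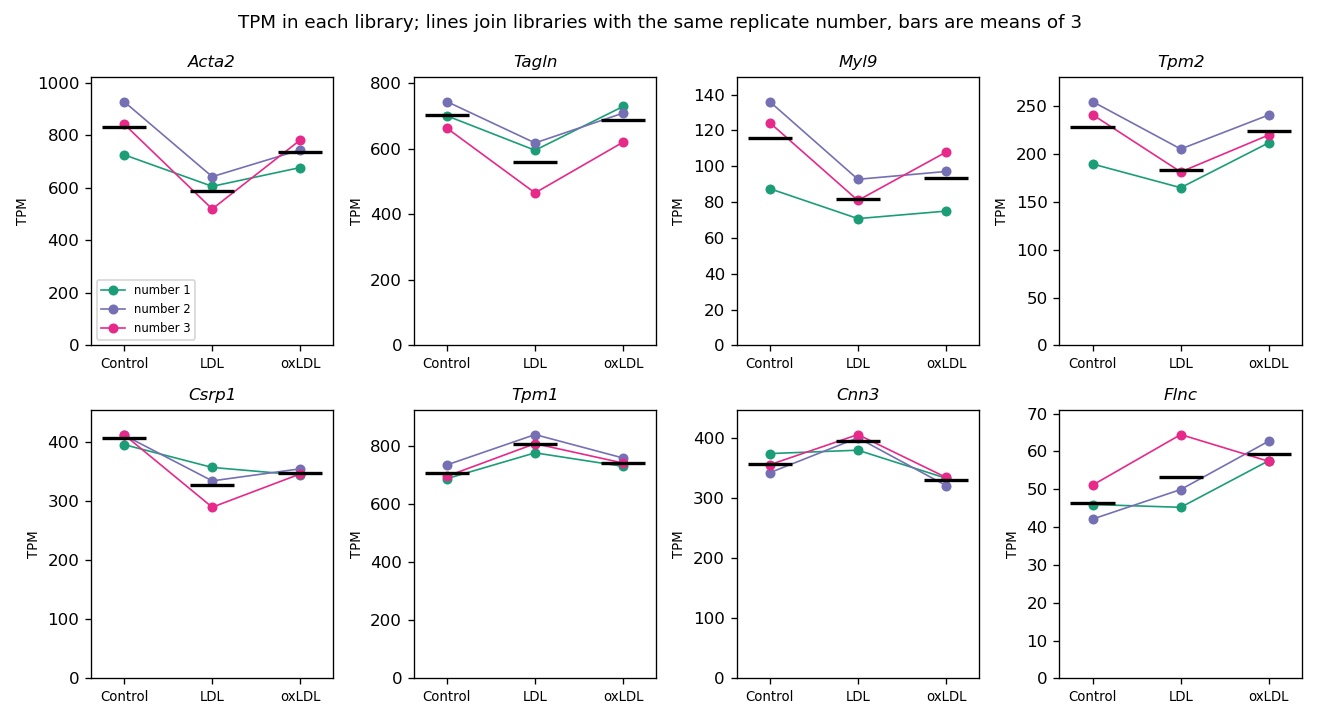
TPM of 8 genes in each library (axes from 0), with lines that join the libraries sharing a replicate number and black bars for the means of 3. Acta2, Tagln, Myl9, Tpm2 and Csrp1 are lower with LDL than with Control in each of the 3 numbers, Tpm1 and Cnn3 are higher in each, and Flnc is highest in mean with oxLDL.

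With oxLDL against Control, the means of Acta2, Tagln and Tpm2 lay nearer to the Control means than those with LDL did, and the difference between the lipoproteins is tested further on. Acta2 averaged 734 ± 53.3 TPM and Tagln 687 ± 58.0 TPM with oxLDL (SD, n = 3), with log2 differences of -0.18 (-0.43 to 0.08) and -0.04 (-0.30 to 0.22) from Control. The genes with the smallest unadjusted p-values were Csrp1, Flnc and Smtn. Flnc, the muscle filamin (chr6:29433256-29461883, plus strand), measured 46.0, 42.1 and 51.1 TPM in the Control libraries, 45.2, 49.9 and 64.5 with LDL and 57.6, 62.7 and 57.4 with oxLDL. All 3 oxLDL values of Flnc lay above all Control values, and LDL 3 was the highest of all. Its log2 difference was 0.35 (0.06 to 0.64), that of Csrp1 -0.22 (-0.40 to -0.05) and that of Smtn -0.20 (-0.42 to 0.02), each with an adjusted p of 1 by limma. With the replicate block the adjusted p-values by limma were 0.404 for Flnc, 0.408 for Csrp1 and 0.469 for Smtn.

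Of the 35 tested genes 0 passed limma's threshold, against 0.0148% of all genes, and 0 with the replicate block, against 0.126%. At an unadjusted p under 0.05 there were 2, Csrp1 and Flnc, against 3.86% of all genes. Groups did not overlap in 3 genes that were lower with oxLDL, Cnn3, Csrp1 and Smtn, against 3.83%, and in 1 that was higher, Flnc, against 3.5%. In 3 of 3 same-numbered pairs 9 genes were lower, among them Acta2, Myl9, Csrp1 and Smtn, against 14% of all genes, and 5 were higher, Cald1, Flnc, Myh9, Pdlim7 and Tpm1, against 13.1%. Means were lower in 19 genes and higher in 16, with a median log2 difference of -0.02, against -0.00276 over all genes. That median was 0.0398 without Control 3 and 0.0219 without oxLDL 1, so its sign depended on single libraries. Myl9 differed by -0.30 (-0.73 to 0.12) and Mylk by -0.27 (-0.60 to 0.07), intervals that include 0. The summed level of the 38 genes with oxLDL was 26022, 26807 and 25263 TPM, overlapping with the Control sums.

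**Figure D4:**
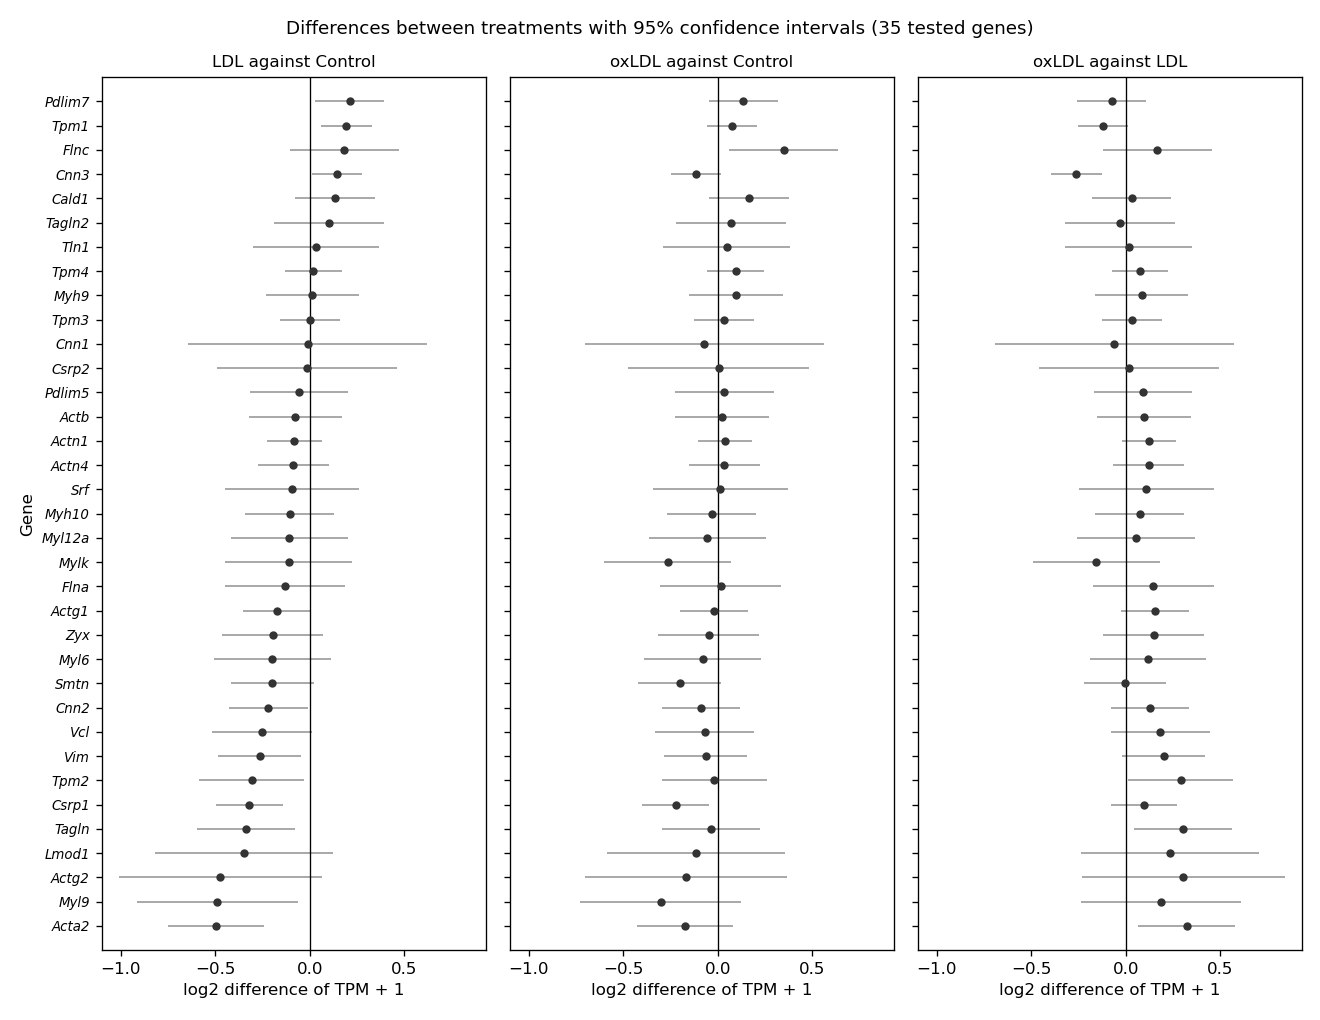
Log2 difference of TPM + 1 (points) with its 95% confidence interval (lines) for the 35 tested genes in the 3 comparisons, in the order of the LDL against Control difference. Most points of the first panel lie left of 0, with Acta2 and Myl9 lowest, and most of the third lie right of 0, where Cnn3 is lowest. No gene passed the adjusted threshold in any panel.

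With oxLDL against LDL, which asks what oxidation of the particle adds at the same dose and time, Acta2, Tagln and Tpm2 were higher in mean with oxLDL and Cnn3 was lower. Cnn3 averaged 395 ± 13.7 TPM with LDL and 329.6 ± 7.49 TPM with oxLDL (SD, n = 3), a log2 difference of -0.26 (-0.40 to -0.13, adjusted p = 0.44 by limma). Acta2 differed by 0.32 (0.07 to 0.58, adjusted p = 0.93 by limma). Tagln differed by 0.30 (0.04 to 0.56, adjusted p = 1), or by a log2 difference of 0.175 without LDL 3. Tpm2 differed by 0.29 (0.01 to 0.57, adjusted p = 1). These were the 4 genes at an unadjusted p under 0.05, against 3.91% of all genes. None passed: 0 of 35 had an adjusted p under 0.05, against 0.104% of all genes, and 0 with the replicate block, against 0.259%. With the block the adjusted p-values by limma were 0.133 for Cnn3, 0.335 for Acta2, 0.163 for Tagln and 0.179 for Tpm2.

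Groups did not overlap in 8 genes that were higher with oxLDL, against 4.11% of all genes: the actins Acta2 and Actg1, the alpha-actinins Actn1 and Actn4, the tropomyosins Tpm2 and Tpm4, and Tagln and Vim. They did not overlap in 3 that were lower, Cnn3, Mylk and Tpm1, against 4.2%. In 3 of 3 same-numbered pairs 21 genes were higher with oxLDL, against 16.6% of all genes, and 3 were lower, against 14.9%. By role, all 4 actins and all 7 crosslinker and focal adhesion genes had higher means, with log2 differences of 0.10 to 0.32 and 0.02 to 0.18, as did 5 of 6 myosin genes. Over the 35 genes, 28 had a higher and 7 a lower mean. The median was 0.10, against 0.000869 over all genes, and it was 0.159 without oxLDL 1 and 0.0645 without LDL 1. All 13 tested macrophage markers were lower in mean with oxLDL than with LDL (median -0.24), and their part in the result was not tested. The comparisons share libraries, since the LDL libraries enter this one and the one against Control, so low LDL values appear in both. Side by side, the differences of LDL and of oxLDL from the shared Control libraries were -0.50 and -0.18 for Acta2, -0.34 and -0.04 for Tagln, -0.31 and -0.02 for Tpm2, -0.32 and -0.22 for Csrp1, and 0.15 and -0.12 for Cnn3.

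The genes with a CArG box in the promoter can be read against these differences. All 6 (Myl9, Cnn2, Actg1, Vcl, Myl6 and Srf) were lower in mean with LDL than in Control, with log2 differences of -0.49 to -0.09 and a median of -0.21. Of the 25 tested genes whose promoters held no match to the strict consensus, 15 were lower, with a median of -0.08. With oxLDL against Control 5 of the 6 were lower (median -0.07), and 12 of the 25 without a match (median 0.01). With oxLDL against LDL all 6 were higher, by 0.11 to 0.19, as were 18 of the 25 without a match (median 0.08). The spans overlapped: Acta2 (-0.50), with no strict match in this window, lay below all 6 of these genes, and Csrp1 (-0.32), also without one, below 5 of them. Boxes that depart from the strict consensus were not sought, so the 25 genes may include genes that hold one. The values of Actg1 and Vcl are among those called uncertain above. Without single libraries, Srf differed by -0.194 to 0.0284 for LDL against Control and by -0.0146 to 0.247 for oxLDL against LDL. The 6 genes were measured in the same libraries and are not replicates, and this split was not tested. Of the 13 genes with an MCAT match 9 were lower with LDL (median -0.11), and of the 18 tested genes without one 12 were lower (median -0.09). Acta2 (-0.50) and Tpm1 (0.19), the lowest and the highest of the 13, did not pass the test.

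Of the genes that work with this set, in 3 further lists, 0 passed limma's threshold in any comparison. The 21 tested SRF cofactors and other SRF targets had a median log2 difference of -0.12 with LDL (16 of 21 lower) and 0.09 with oxLDL against LDL (17 of 21 higher). At an unadjusted p under 0.05 there were 2 of 21 for LDL against Control, 2 for oxLDL against Control and 2 for oxLDL against LDL, where all genes gave 6.65, 3.86 and 3.91%. Cyr61, a matricellular protein induced through SRF, measured 993, 984 and 1019 TPM in the Control libraries, 809.7, 896 and 711 with LDL and 991, 1139.7 and 955 with oxLDL. Its LDL values lay below all others, with log2 differences of -0.32 against Control (adjusted p = 0.41) and 0.35 for oxLDL against LDL (adjusted p = 0.64, limma). Ankrd1, an ankyrin repeat protein of stretched muscle and fibroblasts, measured 611, 541 and 674 TPM in the Control libraries, 595, 535 and 548 with LDL and 790.3, 782 and 666 with oxLDL. Its oxLDL values lay above all LDL values and overlapped with Control. It differed by 0.41 between oxLDL and LDL (adjusted p = 0.51). Fhl2, a LIM-only coregulator of SRF, differed by -0.27 with LDL (adjusted p = 0.35). The SRF coactivators themselves, Mkl1 and Mkl2 (MRTF-A and MRTF-B), were expressed at 19.5 and 8.23 TPM in mean, well above Myocd.

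The 24 tested integrins and further focal adhesion genes had median log2 differences of 0.02 for LDL against Control, -0.01 for oxLDL against Control and -0.01 for oxLDL against LDL, with 1, 1 and 0 of 24 at an unadjusted p under 0.05, beside the same shares of all genes. The integrin chain Itga3 had the smallest p among them with LDL, at 34.9, 31.3 and 32.4 TPM in Control and 38.8, 40.5 and 40.4 TPM with LDL (log2 difference 0.27, adjusted p = 0.37), without overlap. Of 17 tested septins, keratins, tubulins and related filament genes, 4, 0 and 1 were at an unadjusted p under 0.05 in the same order of comparisons, where all genes gave 6.65, 3.86 and 3.91%. The smallest p-values belonged to Stmn1, the microtubule destabiliser stathmin (-0.27 with LDL, adjusted p = 0.53), and to Lmna, the nuclear lamin A gene (0.24 between the lipoproteins, adjusted p = 0.8).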

How the data were processed

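RNA-seq libraries of valve interstitial cells (9, with 3 each of Control, LDL and oxLDL) were analysed from the table of TPM values that the authors deposited. TPM is corrected for gene length and sums to a constant, so it keeps no depth: the reads behind a value are unknown, no counting interval was given, and a value of 0 can stand for a failed estimate. The submitters' processing notes name STAR, RSEM 1.3.1 and the mouse build mm10. For the annotation, the name was not given in the sources used here. Per the labels' protocols the library kit did not mark strand. The number of columns left out was 0.

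Values were analysed as log2(TPM + 1), a pseudocount of 1, for the 13495 of 51810 genes that averaged 1 TPM or more. A fold change on this scale understates the change of low genes. Tests used limma 3.58.1 in R 4.3.3 with all 9 libraries in 1 fit (6 residual degrees of freedom, 4 with the block), two-sided, with Benjamini-Hochberg adjustment over all genes tested and a threshold of 0.05. The procedure was also run on simulated data in which the libraries were independent. The correlation by replicate number given below was not simulated. Medians, isoform shares and counts of groups without overlap carry no test. The labels give the replicate numbers 1 to 3 in each group. The correlation of libraries' deviations from their group means was 0.172 to 0.497 for the 9 same-numbered pairs, while the other 18 pairs gave -0.309 to 0.13, so a fit with the number as a block was made beside the main one; the labels do not state what the numbers share.

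The 38 genes and all other lists were chosen with earlier results of these data known. Values in every library are given for 15 contractile genes whatever their result and for the 3 with the smallest p in each comparison. Those of Tpm2, Cnn2, Vim, Csrp2, Flna, Myl6, Pecam1, Cdh5, Cyr61, Ankrd1 and Itga3, in all libraries or some, were added after their values were seen, as were Mkl1 and Mkl2. One further list is not reported here. Other lists are represented by the genes of smallest p. Positions come from GENCODE M21 and promoters from RefSeq, both on GRCm38, the assembly called mm10. Alternatives were other pseudocounts, filters and scalings, the block, fits of 6 libraries and leaving out each library.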

Additional observations from a re-analysis of the deposited data

How the results depend on the processing

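No gene of the set passed the threshold in limma under any of the 592 combinations of gene and alternative setting in each comparison, and 0 of the 35 genes were called with the replicate block, which changed no call of the set. The lowest adjusted p under any setting was 0.054 for Myl9 (LDL against Control), 0.36 for Myl9 (oxLDL against Control) and 0.13 for Cnn3 (oxLDL against LDL). Directions were less stable: the sign of the difference changed under some setting in 10, 20 and 9 of the 35 genes in the same order of comparisons. The replicate block left the medians at -0.106, -0.0198 and 0.098. Other pseudocounts, filters and scalings gave -0.107 to -0.0854 for LDL against Control, -0.034 to -0.00692 for oxLDL against Control and 0.0935 to 0.103 for oxLDL against LDL. Leaving out each library in turn gave -0.137 to -0.0441, -0.0547 to 0.0398 and 0.0645 to 0.159 in the same order. The highest value of the last came without oxLDL 1, and the cause was not tested. Over all genes the block raised the calls from 45 to 115, from 2 to 17 and from 14 to 35. The leave-one-out fits leave a group with 2 libraries. Low genes such as Cnn1 and Actg2 have the widest intervals, and depth could not be weighed.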

Other observations

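As much of these genes' variation went with replicate number as with treatment. When the variation of log2(TPM + 1) of each gene over the 9 libraries was divided into a part by treatment, a part by replicate number and a remainder, the median gene of the 35 had 35.5% by treatment and 35.6% by number, against 16.9% and 44.2% over all genes tested. The number took the larger part in 16 of the 35 genes (45.7%) and in 69.7% of all genes. Tln1, Srf, Tagln2 and Flna had 91.6, 86.6, 86.7 and 84.9% by number, whereas Cnn3, Tpm1, Csrp1 and Acta2 had 86.9, 81.5, 76.0 and 73.6% by treatment. These genes were chosen after their values were seen, and the shares carry no test. Random spread alone also gives treatment and number a part of the variation, so a share is not the size of an effect.

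The direction of the number differed between genes. The libraries numbered 1 were the lowest in all 3 treatments for 13 of the 35 genes (37.1%, against 22% of all genes tested): Actb, the myosin genes Myh9, Myh10 and Myl9, Tpm1 and Tpm2, and Flna, Tln1, Zyx, Cnn2, Pdlim5, Lmod1 and Srf. They were the highest in all 3 for Cald1, Myl6, Myl12a and Tagln2 (11.4%, against 11.6%). Flna measured 596, 726 and 798 TPM in Control 1, 2 and 3, 556, 657 and 719 with LDL and 612, 746 and 779.8 with oxLDL, and Myl6 measured 2405, 2099 and 1918, 2179.9, 1761 and 1675 and 2333, 1952 and 1801 TPM. In both genes the ranking of the numbers was the same within every treatment, and the rankings of the genes were opposite. The endothelial markers Pecam1 and Cdh5 were highest in the libraries numbered 1 in every treatment, at 63.6, 64.9 and 62.9 TPM and 88.6, 101 and 97.7 TPM in Control 1, LDL 1 and oxLDL 1, and their part in the spread was not tested.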
